A study of Mus musculus with 6 samples.

Results

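The antimicrobial and mucosal defense secretory genes are a group of 145 genes among the 23420 genes of an RNA-seq table of the mouse uterus. They were chosen by symbol, when earlier results of these data were already known, as the genes of lactoferrin, lactoperoxidase and its oxidase partners, lipocalins, lysozymes, beta-defensins, S100 proteins, Reg3 lectins, peptidoglycan recognition proteins, BPI-fold proteins, WAP-domain antiproteases, chitinase-like proteins, serum amyloid A, the polymeric immunoglobulin receptor, Dmbt1, trefoil factors, the granule proteins Camp and Ngp, and the RNase A family. Uteri came from C57BL/6J females of 8 weeks that had mated with vasectomised males, and they were taken on day 4.5 of pseudopregnancy. The control females, called controls here, were Foxo1f/f, with both Foxo1 alleles floxed and no Cre, and the conditional knockouts were PgrCre/+ Foxo1f/f, called Foxo1d/d or knockouts here. There were 3 libraries per genotype, and each was made from the pooled RNA of 2 females.

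In the knockout, Cre is driven by the Pgr gene and removes Foxo1 from the PGR-expressing cells of uterine epithelium, stroma and muscle, and from those outside the uterus. The knockout females also carry Cre in place of 1 Pgr allele, which the controls do not, and the effects of that allele and of the Foxo1 deletion cannot be told apart. The values are the authors' mean counts per gene and genotype, so no spread between pools is known here, and no test across libraries was made. The authors' own test results are not used. A library held on average 26125014 counts in controls and 27257963 in knockouts. Ratios given for a gene are log2 values of knockouts over controls, formed from the mean counts as shares of the genotype totals after 1 had been added to each. The 95% Clopper-Pearson interval given with a ratio comes from the counts summed over the 3 libraries, without the added 1, and covers counting error only.

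The female reproductive tract must tolerate sperm and an embryo while it keeps microbes out, and its epithelium secretes a layer of proteins for this purpose into the lumen. Some of them withhold iron from bacteria or bind the molecules with which bacteria take iron up, others cut or perforate the bacterial wall, and others hold back the proteases of leukocytes that would harm the tissue. In the mouse uterus many of these genes follow the ovarian steroids, and lactoferrin has long served as a marker of the estrogen response of the epithelium.

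Foxo1 had a mean count of 3941 in controls and 1456 in knockouts, a log2 ratio of -1.50 (interval -1.55 to -1.45), which is the direction that the genotype labels call for. The stromal markers, 7 of 7 in the table, had a summed level of 10578 counts per 1000000 counts (CPM) in controls and 10386 in knockouts. The smooth muscle markers, 5 of 5, summed to 5447 and 4362 CPM.

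Of the 145 members, 45 reached a mean count of 10, averaged over the genotypes, 48 had counts below that minimum, and 52 had no count in either genotype. Over 1.5-fold higher in Foxo1d/d were 14 members, 31.1% of those 45, where the share over all 15696 genes with that mean count was 5.43%. Over 1.5-fold lower were 6 members, 13.3% of the 45, beside 3.51% of all such genes. The other 25 lay within 1.5-fold. Of the 45, 8 reached the minimum through 1 genotype alone, and 7 of these 8 are among the higher members and 1 among the lower ones, so that they had to differ to be counted. Where the mean count had to reach 10 in each genotype, a rule added after the values were seen, 7 of 37 members were higher and 5 lower, which are 18.9% and 13.5%, beside 4.78% and 3.09% of all 15460 such genes. The median log2 ratio was 0.13 over the 45 members and 0.02 over all genes with that mean count, and the median absolute log2 ratio was 0.44 beside 0.14.

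As a share of the library the group hardly differed, with 0.184% of all counts in controls and 0.183% in knockouts. Most of these counts belong to few genes: the 8 members with the highest mean counts held 77.1% of the members' counts in controls and 74.8% in knockouts, and none of them was past 1.5-fold. The genes past 1.5-fold are thus mostly members of middle or low abundance.

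**Figure D1:**
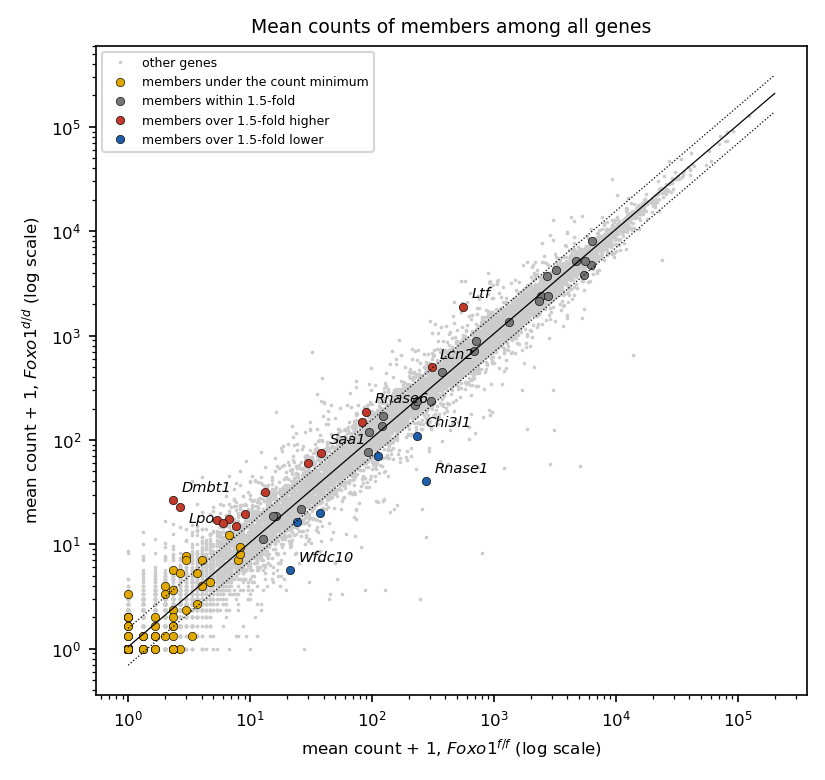
Mean count plus 1 of each gene in Foxo1f/f (horizontal axis) and Foxo1d/d (vertical axis), both on log scales, for all 23420 genes (grey) and the 145 members (coloured by class). The solid line marks equal shares of the library totals and the dotted lines 1.5-fold around it. Ltf lies above the dotted lines at mean counts of 559 and 1885, and Rnase1 below them at 276 and 39.3.

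Lactoferrin, the iron-binding glycoprotein of secretions and of neutrophil granules, had the largest difference in counts among the higher members. The mean count of Ltf was 559 in controls and 1885 in knockouts, a log2 ratio of 1.69 (interval 1.61 to 1.77) and a fold of 3.23 without the added 1. Per length, its level was 7.81 counts per kilobase of exon and per 1000000 counts (RPKM) in controls and 25.2 in knockouts. On that scale Ltf held place 19 among the 45 members in controls and place 14 in knockouts. In bulk tissue, fewer or more cells of a type and less or more RNA per cell cannot be told apart. The 150 bases before the start of Ltf lie at chr9:111019142-111019291 on the plus strand of GRCm38.p6 (RefSeq). They are shown because Ltf has the highest mean counts of the members past 1.5-fold. Capitals mark the letters TTGCNNAA or their reverse complement, a pattern of CCAAT/enhancer-binding proteins.
Ltf: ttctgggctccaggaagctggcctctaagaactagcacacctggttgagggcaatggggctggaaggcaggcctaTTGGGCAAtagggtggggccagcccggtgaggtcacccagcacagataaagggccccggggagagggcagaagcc

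Lactoperoxidase, which oxidises thiocyanate to an antibacterial product with hydrogen peroxide, was nearly absent from the controls. Lpo had a mean count of 1.67 in controls and 22 in knockouts, a log2 ratio of 3.05 (interval 2.37 to 5.33). It reached the minimum only through Foxo1d/d, so it had to differ to be counted. Duox2, the epithelial oxidase that releases hydrogen peroxide, was the most abundant member of this role by counts and was at mean counts of 92.3 and 75.7, a ratio of -0.35 (interval -0.61 to -0.09). Its maturation factor gene Duoxa2, the next gene along the chromosome, had mean counts of 25.3 and 20.7 and a ratio of -0.34 (interval -0.86 to 0.15). Both lay within 1.5-fold, and the interval of Duoxa2 includes 0. The neighbouring pair Duox1 and Duoxa1 stayed under the minimum, with mean counts of 2 and 6.67 for Duox1 and of 2 and 6 for Duoxa1. In GENCODE M21, but not in RefSeq, Duoxa2 shares 682 bases, 42.8% of its exon length, with Duoxa1 on the opposite strand, and the RefSeq spans of Duoxa1 and Duox1 overlap, so the counts of these 3 genes are uncertain.

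Dmbt1, a large scavenger-receptor glycoprotein that agglutinates bacteria on mucosal surfaces, had the highest ratio of the 45 members. Its mean count was 1.33 in controls and 25.7 in knockouts, a log2 ratio of 3.45 (interval 2.79 to 6.12) and a fold of 18.4 without the added 1, with counting limits of 6.92 and 69.4. Per length it was nevertheless the lowest of the 45 members in both genotypes, at 0.00813 and 0.150 RPKM. Lpo was the second lowest in Foxo1f/f on that scale, at 0.0218. The 2 highest ratios therefore belong to transcripts that were scarce in either genotype. Dmbt1, like Lpo, reached the minimum only through Foxo1d/d, so both had to differ to be counted.

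Among the lipocalins, small barrel proteins that carry hydrophobic ligands, Lcn2 was the only one of 10 genes above the minimum. Its product binds bacterial siderophores and so starves bacteria of iron. The mean count of Lcn2 was 307 in controls and 494 in knockouts, a log2 ratio of 0.62 (interval 0.50 to 0.74), so the lower counting limit lies under 1.5-fold. Of the other 9 lipocalin genes, most of which are known from epididymis and glands of the head, 5 had no count.

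Serum amyloid A proteins are acute-phase lipoproteins made by liver, epithelium, macrophages and fat. Saa1 had mean counts of 37.3 in controls and 74.3 in knockouts, a log2 ratio of 0.91 (interval 0.60 to 1.27). Saa3 was at 28.7 and 58.7, a ratio of 0.95 (interval 0.59 to 1.36). Saa2 had 14.3 and 17.7, a ratio of 0.22 whose interval, -0.37 to 0.86, includes 0. Saa1 and Saa2 are near-identical neighbours, and how their shared reads were assigned is uncertain. Saa4 stayed under the minimum.

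The upstream parts of these genes show the likeness of Saa1 and Saa2, and are printed for that reason with the one of Lcn2. Of the 249 aligned bases in the 250 bases before their starts, 238 are equal between Saa1 and Saa2, while Saa1 and Saa3 share 120 of 239. The stretches are the 200 bases before an annotated start for Saa1 (chr7:46742981-46743180, minus strand), Saa2 (chr7:46751633-46751832, plus strand) and Saa3 (chr7:46715677-46715876, minus strand), and the 250 bases before the start for Lcn2 (chr2:32387740-32387989, minus strand), all from RefSeq on GRCm38.p6. For Saa1 and Saa3 this is an inner start, and all 200 bases lie within the RefSeq span of the gene. Capitals mark TTGCNNAA or its reverse complement.
Saa1: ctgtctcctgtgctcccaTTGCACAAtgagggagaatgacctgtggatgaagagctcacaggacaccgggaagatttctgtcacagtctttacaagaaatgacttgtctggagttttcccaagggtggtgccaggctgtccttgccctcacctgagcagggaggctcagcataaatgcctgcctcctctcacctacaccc
Saa2: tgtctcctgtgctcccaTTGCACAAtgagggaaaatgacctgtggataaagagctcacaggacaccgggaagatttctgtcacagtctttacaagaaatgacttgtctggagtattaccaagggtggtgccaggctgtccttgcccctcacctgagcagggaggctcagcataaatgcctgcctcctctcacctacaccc
Saa3: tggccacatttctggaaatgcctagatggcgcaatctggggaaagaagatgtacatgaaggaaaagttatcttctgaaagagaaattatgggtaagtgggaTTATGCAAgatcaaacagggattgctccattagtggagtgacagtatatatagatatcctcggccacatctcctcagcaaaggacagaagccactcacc
Lcn2: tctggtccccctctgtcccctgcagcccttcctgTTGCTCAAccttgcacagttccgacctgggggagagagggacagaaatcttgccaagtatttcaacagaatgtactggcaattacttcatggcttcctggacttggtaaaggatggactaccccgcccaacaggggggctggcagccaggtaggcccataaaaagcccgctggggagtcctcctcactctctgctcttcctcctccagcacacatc

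Among promoter windows of 300 bases, 250 before to 50 after the start, 118 of the 145 members had at least 1. TTGCNNAA on either strand was found in windows of 8 of the 11 higher members that have one, namely Lcn2, Ltf, Rnase6, S100a9, Saa1, Saa3, Slpi and Wfdc6a, and of none of the 5 lower members. Over all 27025 genes with windows the share was 12.2%, over the 118 members it was 28.8%, and over the members above the minimum it was 35.9% (14 of 39). This pattern was picked after the values and sequences had been seen, when patterns of 4 other kinds (estrogen receptor, NF-kB, TATA and AP-1) had also been looked at, so the count is a description only. None of these others was found in the 5 lower members. In the 11 higher members TATAAA was found in 3, and TATATAA and the estrogen receptor, NF-kB and AP-1 patterns in 0. Over all genes with windows, TATAAA was in 15.7%, AP-1 in 5.95%, TATATAA in 3.84% and each remaining pattern in at most 0.174%. The forkhead pattern GTAAACA, which FOXO factors bind, was in the window of 1 of the 118 members, S100g, beside 4.05% of all genes with windows. A match is not a site of binding, and a missing match says only that these letters are not in these windows.

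The S100 proteins are small calcium sensors, and some of them are secreted and sequester zinc, manganese or calcium at mucosal surfaces. Of 16 genes 11 were above the minimum, and 9 of these lay within 1.5-fold. The 2 genes past 1.5-fold were scarce. S100a9, a subunit of the antimicrobial calprotectin of neutrophils and epithelium, had mean counts of 12.3 in controls and 30.7 in knockouts, a log2 ratio of 1.19 (interval 0.69 to 1.84). Its partner S100a8, its neighbour on the chromosome, stayed under the minimum with 5.67 and 11.3. S100a14, an epithelial S100 protein, had mean counts of 8 and 18.3, a ratio of 1.04 (interval 0.42 to 1.89), and reached the minimum only through Foxo1d/d. S100a6, with the highest mean count of this role averaged over the genotypes, was at 5561 and 5161, a ratio of -0.17 (interval -0.20 to -0.14).

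S100g encodes calbindin-D9k, an intracellular calcium buffer of uterus and gut that is known to follow the ovarian steroids. Per length it had the highest level of the 45 members in both genotypes, with 434 RPKM in controls and 290 in knockouts. Its mean counts were 5438 and 3793, a log2 ratio of -0.58 (interval -0.62 to -0.55), just inside 1.5-fold. Scaled by the median ratio of abundant genes instead, S100g was past 1.5-fold and the number of lower members was 7. Its window carries both patterns, shown here in the 250 bases before the start at chrX:162964600-162964849 on the minus strand of GRCm38.p6 (RefSeq). The first run of capitals is the CCAAT/enhancer-binding pattern and the second is GTAAACA.
S100g: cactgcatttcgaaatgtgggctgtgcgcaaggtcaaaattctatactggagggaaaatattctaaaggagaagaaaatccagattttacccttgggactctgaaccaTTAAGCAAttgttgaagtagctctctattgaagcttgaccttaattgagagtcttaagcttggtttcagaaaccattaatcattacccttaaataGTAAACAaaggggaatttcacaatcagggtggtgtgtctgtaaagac

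**Figure D2:**
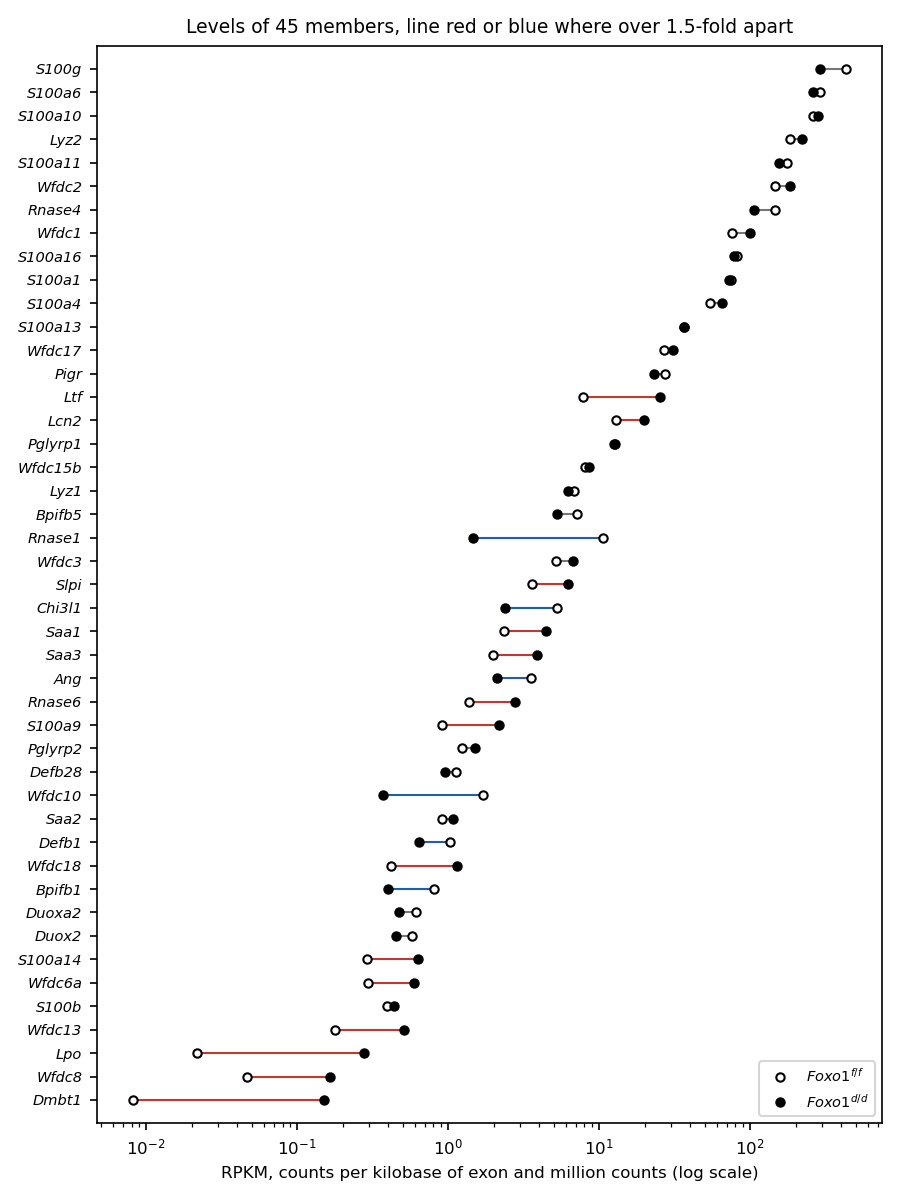
Level of each of the 45 members that reached a mean count of 10, in RPKM on a log scale, for Foxo1f/f (open circles) and Foxo1d/d (filled circles). Each point is 1 value from the authors' mean count, and the joining line is red for higher and blue for lower members past 1.5-fold. Levels reach from 0.00813 for Dmbt1 to 434 for S100g in Foxo1f/f.

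The WAP-domain genes encode small secreted inhibitors of serine proteases, several of them antibacterial in their own right. Of 18 genes 11 were above the minimum, of which 5 were over 1.5-fold higher, 1 over 1.5-fold lower and 5 within that range. The abundant ones were close to the controls: Wfdc2, with the highest mean count of the role, was at 3251 in controls and 4225 in knockouts, a log2 ratio of 0.32 (interval 0.28 to 0.36). Slpi, the secretory leukocyte protease inhibitor that blocks neutrophil elastase, had mean counts of 81.7 and 148, a ratio of 0.79 (interval 0.56 to 1.02).

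The other 4 higher WAP genes had few counts and reached the minimum only through Foxo1d/d. Wfdc8 had mean counts of 4.33 in controls and 16 in knockouts, a log2 ratio of 1.61 (interval 0.92 to 2.83). Wfdc13 had 5 and 15, a ratio of 1.35 (interval 0.65 to 2.47). Wfdc18, which lies apart from them on chromosome 11 beside Wfdc17, had 5.67 and 16.3, a ratio of 1.32 (interval 0.64 to 2.36). Wfdc6a was the least certain of them. Its mean counts were 6.67 and 14, a ratio of 0.91 with an interval of 0.21 to 1.86.

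Wfdc10 went the other way, from a mean count of 20.3 in controls to 4.67 in knockouts, a log2 ratio of -1.97 (interval -3.14 to -1.33). It lies in the same cluster on chromosome 2 as Wfdc6a, Wfdc8 and Wfdc13, between Wfdc8 and Wfdc13 in the RefSeq order. It reached the minimum only through Foxo1f/f, so all 4 had to differ to be counted. Its annotated span overlaps that of Wfdc9, which had a mean count of 0 in controls and 0.667 in knockouts, so these reads are assigned with some uncertainty. Summed over all 18 genes, the role reached 256 CPM in controls and 328 in knockouts.

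The RNase A family held both directions. Rnase1, the secreted pancreatic-type ribonuclease that degrades extracellular RNA, had a mean count of 276 in controls and 39.3 in knockouts, a log2 ratio of -2.84 (interval -3.16 to -2.59) and the lowest of the 45 members. It was 7.31-fold lower without the added 1, with counting limits of 6.02 and 8.95. Rnase6, an antibacterial ribonuclease known from monocytes and macrophages and the neighbour of Rnase1 on chromosome 14, had mean counts of 88.3 and 185, a ratio of 1.00 (interval 0.79 to 1.22). Side by side on the chromosome, these genes differed in opposite directions.

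Angiogenin, the ribonuclease that promotes vessel growth and kills some microbes, shares its first exons with Rnase4. Ang had mean counts of 111 in controls and 69.3 in knockouts, a log2 ratio of -0.73 (interval -0.99 to -0.48). Rnase4, the most abundant gene of the family, had 6258 and 4742, a ratio of -0.46 (interval -0.49 to -0.43). The transcripts share 219 bases of exon, which are 18.2% of the exon length of Ang and 13.4% of that of Rnase4, and reads on them could be counted for neither or either gene, so both values are uncertain. Ang also has paralogs, of which Ang4, with mean counts of 1.33 and 4.67, stayed under the minimum.

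The upstream sequences of the lower RNases are shown because Ang and Rnase4 have the same annotated first start, with all 250 bases before it in common, while Rnase1 has its own. The 150 bases before each start lie at chr14:51090927-51091076 on the plus strand for Ang and Rnase4 and at chr14:51146768-51146917 on the minus strand for Rnase1 (RefSeq, GRCm38.p6). Neither stretch holds GTAAACA or TTGCNNAA, so no letters are in capitals. A promoter window of Rnase4 does hold TTGCNNAA, outside the stretch shown.
Ang and Rnase4: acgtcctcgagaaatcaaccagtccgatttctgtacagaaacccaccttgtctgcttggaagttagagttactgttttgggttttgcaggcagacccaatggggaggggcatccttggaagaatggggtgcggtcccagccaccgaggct
Rnase1: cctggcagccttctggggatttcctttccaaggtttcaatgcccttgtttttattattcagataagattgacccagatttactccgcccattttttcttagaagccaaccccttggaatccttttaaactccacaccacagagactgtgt

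Chi3l1, a chitinase-like lectin without enzyme activity that is made by macrophages and epithelium, had a mean count of 231 in controls and 109 in knockouts. The log2 ratio was -1.14 (interval -1.34 to -0.95). Of the BPI-fold genes, whose products bind lipids and bacterial endotoxin in airway and oral secretions, 2 of 15 were above the minimum and both were lower by counts. Bpifb1 had mean counts of 36.7 and 19, a ratio of -0.97 (interval -1.50 to -0.54). Bpifb5, which lies close by in the same cluster and had more counts, had 305 and 235, a ratio of -0.44 (interval -0.58 to -0.29).

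Beta-defensins, the short cationic peptides that open bacterial membranes, made up 42 of the members but hardly any counts. No count in either genotype was found for 31 of them, which allows up to 3 counts over the libraries of a genotype, or 0.0383 CPM in controls and 0.0367 in knockouts. Defb1, the constitutive defensin of many epithelia, had a mean count of 23.3 in controls and 15.3 in knockouts, a log2 ratio of -0.64 (interval -1.24 to -0.11), so the counting error alone reaches from a small to a large difference. Defb28 was the only other beta-defensin above the minimum, at 11.7 and 10.3, a ratio of -0.22 (interval -0.98 to 0.50). Reads of beta-defensin paralogs can be shared, so their low counts are uncertain too.

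Lysozymes, which cut the peptidoglycan of the bacterial wall, were abundant and close between the genotypes. Lyz2, the lysozyme of macrophages, had mean counts of 6356 in controls and 7975 in knockouts, a log2 ratio of 0.27 (interval 0.24 to 0.29). Lyz1, its neighbour and close paralog, had 226 and 215, a ratio of -0.13, and how reads of the pair were divided is uncertain. Of the peptidoglycan recognition proteins, Pglyrp1 had 231 and 236, a ratio of -0.03 (interval -0.18 to 0.12), the highest mean counts of its role.

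Pigr, the receptor that carries dimeric IgA across the epithelium into the lumen, had mean counts of 2750 in controls and 2408 in knockouts. The log2 ratio was -0.25 (interval -0.30 to -0.21), well inside 1.5-fold. The J chain gene Igj, whose product joins the IgA that this receptor carries, had 470 and 2092, a ratio of 2.09 (interval 2.01 to 2.18). The cargo's joining chain and its epithelial carrier thus differed by counts in opposite directions.

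Neither the trefoil factors, 3 genes of mucus-associated peptides, nor the Reg3 lectins, 4 genes of wall-binding lectins best known from the gut, had a member above the minimum. Reg3g came closest, with mean counts of 7.33 in controls and 7 in knockouts. Among all 100 members under the minimum, the highest mean over both genotypes was 8.50, that of S100a8. By role they were 40 beta-defensins, 13 BPI-fold genes, 10 RNases, 9 lipocalins, 7 WAP genes, 5 S100 genes, 4 Reg3 lectins, 3 trefoil factors, and 2 each of the granule proteins, the peroxide supply genes, the recognition proteins and the chitinase-like genes, with 1 serum amyloid gene.

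**Figure D3:**
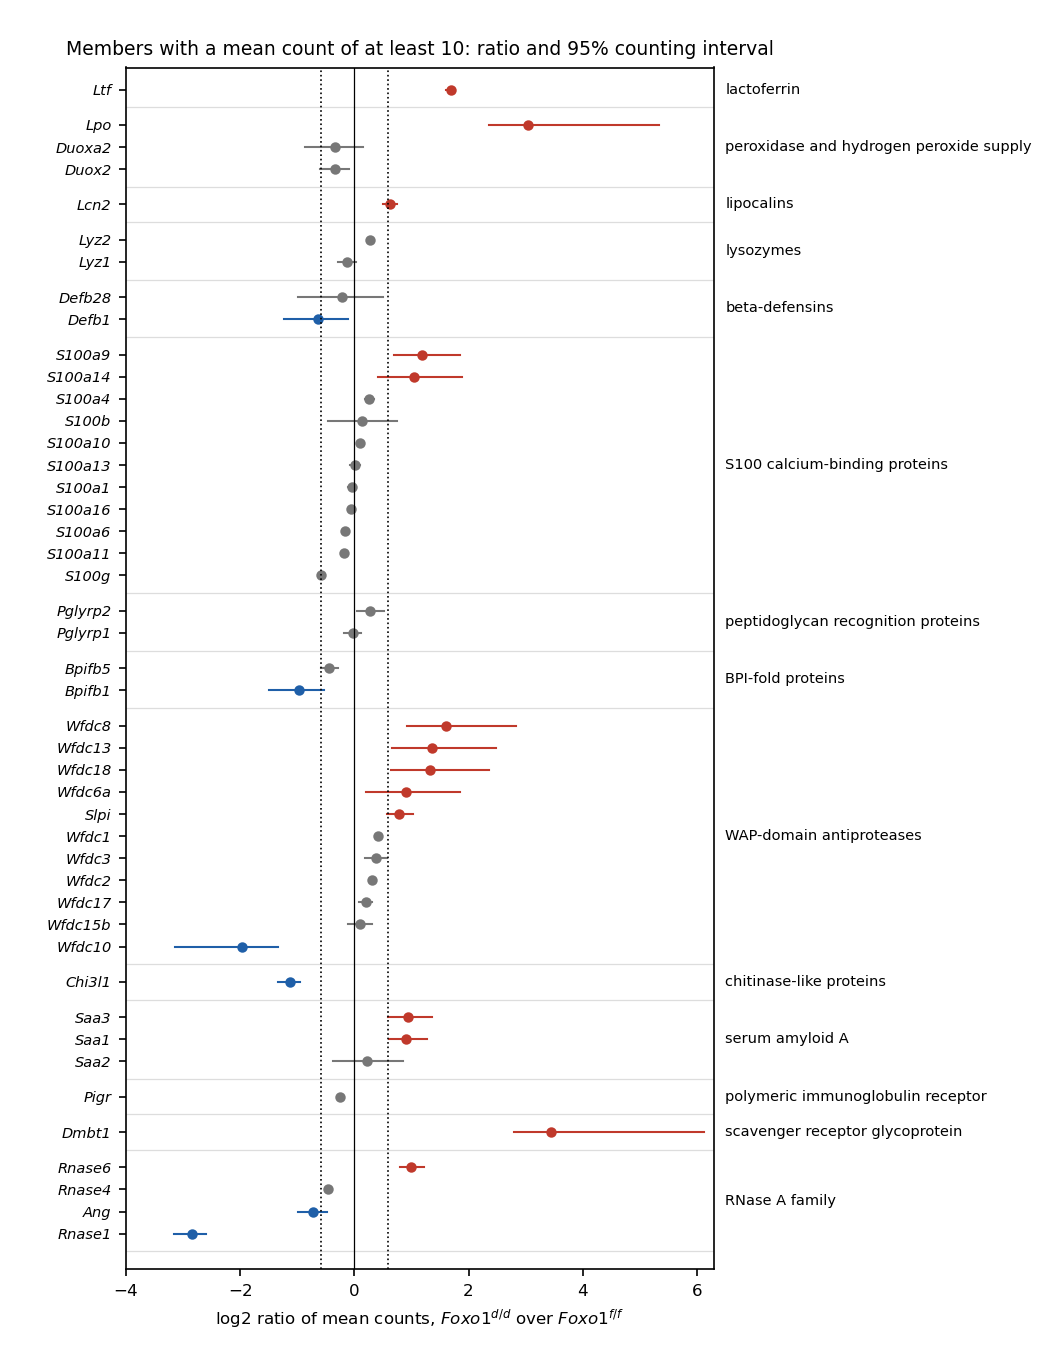
Log2 ratio of mean counts, Foxo1d/d over Foxo1f/f, of the 45 members with a mean count of at least 10, ordered by role, with the 95% counting interval as a bar (counting error only). Dotted lines mark 1.5-fold, red points lie above and blue points below it. Dmbt1 (3.45) and Lpo (3.05) have the highest ratios and wide bars, and Rnase1 (-2.84) the lowest ratio. Dmbt1 and Lpo reached the mean count of 10 only through Foxo1d/d.

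Ltf, Lcn2, S100a8 and S100a9 are also expressed by neutrophils. Camp and Ngp, abundant in the secondary granules of neutrophils together with lactoferrin, had mean counts of 1.33 and 1.00 for Camp and of 0 and 1.00 for Ngp in Foxo1f/f and Foxo1d/d, so these granule markers were at or near 0 in both. Of 13 neutrophil markers 12 were in the table and 8 above the minimum, of which Mpo (mean counts 26.3 and 52.3) and Cd177 (14 and 26.3) were over 1.5-fold higher. The other 6 lay within 1.5-fold. They were Itgam, Csf3r (253 and 355), Mmp9 (179 and 175), Retnlg (52 and 67.3), Prtn3 (45.3 and 56) and Cxcr2 (9 and 14.3). The list summed to 48.5 CPM in controls and 60.5 in knockouts, its most abundant gene was Itgam, Fcnb was at 0 in both genotypes, and Elane had a mean count of 0 and 1.00.

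Macrophages make Lyz2, Rnase6 and Chi3l1. All 8 macrophage markers, with C1qa the most abundant over both genotypes, lay within 1.5-fold, and their sum was 513 CPM in controls and 605 in knockouts, with none at 0. Epithelial markers, 10 of 10 in the table and led by Cdh1, summed to 843 and 1020 CPM with none at 0. Krt19 alone among them was past 1.5-fold, at 757 and 1842, a ratio of 1.22.

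All 6 adipocyte markers were over 1.5-fold higher in Foxo1d/d, with a median log2 ratio of 2.13, a sum of 22.1 CPM in controls and 92.4 in knockouts, and Car3 the most abundant, at mean counts of 296 and 1381. Saa3 and Lcn2 are known to be made by fat as well. Of the 7 B and plasma cell markers, all in the table, 6 were above the minimum and 4 over 1.5-fold higher, among them Igj, the most abundant, Pou2af1 and Cd79b, while Mzb1 and Cd79a lay within that range. The list summed to 23.9 and 86.3 CPM with none at 0, of which Igj alone held 18.0 and 76.7.

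Stratified epithelium markers, 7 of 7 in the table and led by Trp63 in controls and Sprr2f in knockouts, summed to 9.82 CPM in controls and 47.9 in knockouts, with 4 of 6 over 1.5-fold higher (Sprr2f, Krt15, Krt5 and Krt14), Dsg3 lower and Trp63 within that range (90.3 and 100). Uterine gland markers, 4 of 5 in the table and led in controls by Prss29, summed to 763 and 102 CPM, with Prss28 and Prss29 lower, Lif higher and Foxa2 within 1.5-fold, at mean counts of 280 and 300. Of the 2 oviduct markers Foxj1 was over 1.5-fold higher and Ovgp1, the more abundant, was not, with a sum of 112 and 127 CPM. Eosinophil markers, 8 of 9 in the table and led over both genotypes by Ccr3, summed to 3.28 and 3.46 CPM, with Prg2 over 1.5-fold lower and Ear2 at 0, and of the erythrocyte markers, 4 of 6 in the table, Alas2 was higher, at mean counts of 147 and 403, while the 3 listed globin genes in the table were at 0. A further beta-globin entry outside the list, Beta-s, had mean counts of 1087 and 2528, a ratio of 1.16. The part that any of these cell types plays in the ratios of the members was not tested.

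**Figure D4:**
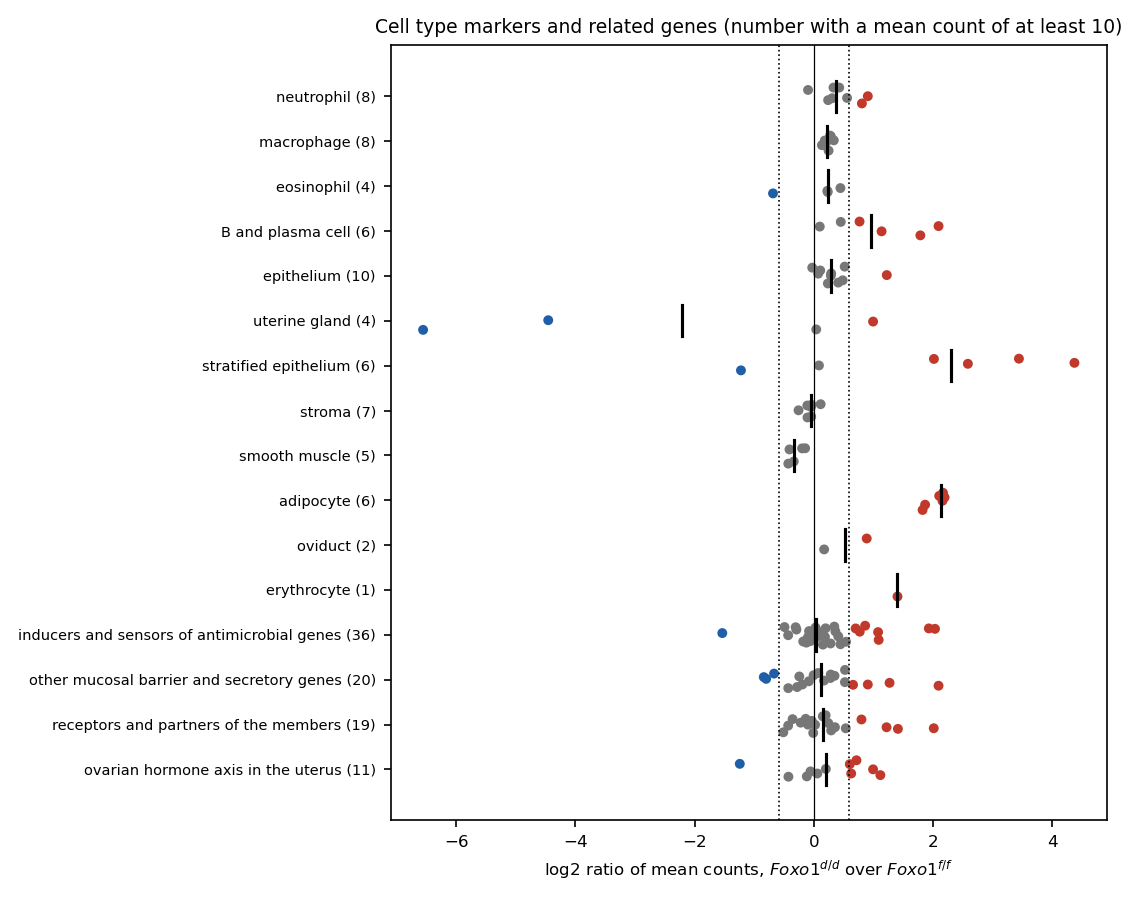
Log2 ratio of mean counts, Foxo1d/d over Foxo1f/f, for each gene that reached a mean count of 10 in lists of cell type markers and of genes related to the members, with the number of genes in brackets. Black bars are medians, dotted lines mark 1.5-fold, and points are spread vertically for legibility only. All 6 adipocyte markers lie to the right of the dotted line, and the median of the inducers and sensors is at 0.04.

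Antimicrobial genes are induced through interleukin and Toll-like receptors. Of 38 such inducers and sensors 36 were above the minimum, of which 7 were over 1.5-fold higher and 1 lower, with a median log2 ratio of 0.04. Over all 15696 genes above the minimum, 5.43% were higher and 3.51% lower, which is the background for the other lists too. Il17rb, a receptor chain for interleukin 25, had mean counts of 3030 in controls and 12915 in knockouts, a ratio of 2.03. Myd88, the adaptor of most Toll-like receptors, had 2059 and 4528, a ratio of 1.08. The others among the higher genes were Ifng (9 and 38.7), Tnf (33.3 and 75), Elf3 (590 and 1118), Il1b (27.3 and 49.3) and Spdef (15.3 and 26.7), and the lower one was Il1a (28.7 and 9.67). Ifng and Il1a reached the minimum through 1 genotype alone. Stat3, the most abundant in controls, was at 10474 and 10455.

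Of 19 receptors and partners of the members, 4 were over 1.5-fold higher and none lower, with a median log2 ratio of 0.15. Lrp2, the megalin of apical membranes that takes up Lcn2 and lactoferrin among many ligands, had mean counts of 3948 in controls and 9579 in knockouts, a ratio of 1.22. Fpr1 (4 and 20.0) and Fpr2 (7.67 and 23), formyl peptide receptors of phagocytes of which the latter also binds serum amyloid A, and Cd4 (93.3 and 170) were the others, of which the 2 Fpr genes reached the minimum only through Foxo1d/d. Lrp1, the most abundant, which also takes up lactoferrin, had 19828 and 18793.

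Other barrier genes went both ways, 4 higher and 3 lower of 20 above the minimum, with a median log2 ratio of 0.12. Besides Igj and Mpo, the higher ones were Cftr, the chloride channel (38 in controls and 97 in knockouts), and Hp, haptoglobin (428 and 704). Among the lower ones were the complement regulator gene Cd55 (3460 and 2015) and the water channel gene Aqp5 (878 and 525). C3, the most abundant, had mean counts of 15289 and 17924.

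Because several members are known to follow the ovarian steroids, 11 genes of the hormone axis were set beside them. Over 1.5-fold higher were Msx1 (501 in controls and 1132 in knockouts), Lif (854 and 1774), Areg (47.3 and 81.7), Greb1 (1639 and 2637) and Ihh (796 and 1260), and lower was Calca (94.3 and 41). Scaled by the median ratio of abundant genes, Ihh was within 1.5-fold. The 5 genes not called lay within 1.5-fold, among them Igf1, the most abundant, at 19765 and 15326. Pgr, given because Cre sits in it, had 5469 and 6551, a log2 ratio of 0.20.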

How the data were processed

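Uterine poly(A) RNA was sequenced in paired ends, and the authors used STAR for mapping the trimmed reads, Picard for removing duplicates, HTSeq for counting on RefSeq genes and edgeR for comparing the genotypes. Versions are not given in the sources used here, and the build is mm9 in the submitters' processing notes and mm10 in the paper's methods. The deposited table holds the authors' mean raw count per gene and genotype. It also holds the authors' fold change, average log2 CPM, p-value and FDR, which were not used. A quasi-likelihood test, planned in case of counts per library, was not run. All mean counts are whole after multiplication by 3, to within 1e-09, and sum to 78375043 in Foxo1f/f and 81773890 in Foxo1d/d, from which the Clopper-Pearson intervals came.

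Genes were called higher or lower past 1.5-fold where their mean count, averaged over the genotypes, reached 10. The floor for a count of 0 is 3 counts over the libraries of a genotype. Exon lengths are from GENCODE M21 transcripts with a RefSeq match (GRCm38). Promoter windows and gene order are from RefSeq (GRCm38.p6), whose coordinates are those of that assembly and not of the table. Named are chiefly Foxo1, members past 1.5-fold, the measured member with the highest mean count of each role and, from other lists, genes past 1.5-fold and the most abundant, except 2 that are not reported here. Genes named beyond this rule (Duoxa2, Duox1, Duoxa1, S100a8, S100g, Saa2, Saa4, Defb28, Lyz1, Ang4, Reg3g, Wfdc9, Wfdc17, Camp, Ngp, Elane, Fcnb, Csf3r, Mmp9, Retnlg, Prtn3, Cxcr2, Ear2, Foxa2, Mzb1, Cd79a, Trp63, Beta-s and Pgr) were picked after their values were seen. Members and lists were chosen with earlier results of these data known. The code for ratios and intervals was run on simulated Poisson counts (Python 3.11.15, numpy 2.4.6, scipy 1.17.1, pandas 2.3.3). These counts had the same mean in each library of a genotype, as the intervals assume. The run therefore says nothing about variation between pools.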

Additional observations from a re-analysis of the deposited data

How the results depend on the processing

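Of 14 higher and 6 lower members, all stayed past 1.5-fold with a pseudocount of 0.1 and with both other scalings, of which scaling by the median ratio took 0.02 from every log2 ratio and added 1 lower member, S100g, while Ihh of the hormone axis came within 1.5-fold, at 0.579. The counts moved with the filter and the threshold, because these take in more or fewer genes. Without a filter on counts, 30 members were higher and 15 lower, and 1588 and 1135 of all genes. These are 20.7% and 10.3% of the 145 members, beside 6.78% and 4.85% of all 23420 genes. They take in members with counts near 0, such as Ngp at mean counts of 0 and 1.00. Where the mean count had to reach 50, 5 members were higher and 3 lower, and 528 and 357 of all genes, which are 17.2% and 10.3% of the members tested beside 3.81% and 2.58% of all genes. At a fold of 2 and the mean count of 10, these were 8 and 3 members, and 313 and 220 genes. The shares were 17.8% and 6.67% of the 45 members, beside 1.99% and 1.40% of all 15696 genes. With the whole counting interval past 1.5-fold they were 10 and 3 members, and 457 and 335 genes. The shares were then 22.2% and 6.67% of the 45 members, beside 2.91% and 2.13% of all 15696 genes. Where the mean count had to reach 10 in each genotype, an alternative added after seeing the data, 7 members were higher and 5 lower. These are 18.9% and 13.5% of the 37 members tested. Of all 15460 genes tested, 739 and 478 were higher and lower, which are 4.78% and 3.09%. None of 86 named genes changed the sign of a called ratio under the other pseudocount or the 2 scalings.

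No paired analysis was possible because the values are means per genotype and carry no replicate numbers. Leaving out each replicate, the replicate block and DESeq2 were planned for counts per library and were not run. Variation between pools is therefore unknown, and members with few counts are limited by depth.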
